A study of Papio hamadryas with 17 samples.

Results

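The genes described here encode the proteins of the cytosolic ribosome. They were chosen by symbol: RPL or RPS followed by a number, with an optional ending such as A, X or L, and the stalk genes RPLP0, RPLP1 and RPLP2. In the table of females 76 of 13850 genes qualified, 49 of the large subunit (RPL) and 27 of the small subunit (RPS), with 112 transcripts.

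RNA was sequenced from the kidney cortex of 17 baboons, sampled by biopsy under ultrasound, with 1 library per animal and no treatment. All animals had eaten a low salt chow for life, and were sedated with ketamine, held under isoflurane and given buprenorphine around the biopsy. The 8 females were labelled with ages from 15 to 19 and the 9 males with ages from 6 to 13, with no unit given. The ages of the sexes did not meet, and the females carry 1 series of library names and the males another 2, of 5 and 4 libraries, so sex cannot be told apart from age or name series. Values are the authors' scaled signal per transcript, from which the offset of 1 was subtracted before transcripts were summed per gene. Most of the members lay outside the part of the male table held here: 8 members had any transcript in both tables, and only RPL3 and RPL7L1 had all of theirs. The level and the proportions of the family are therefore described in the 8 females, and the sexes are compared for the shared transcripts alone.

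The ribosome joins a small subunit, which reads the messenger RNA, to a large subunit, which forms the peptide bond. Each protein is built into the particle in a fixed number of copies, and the mRNAs of these genes share a terminal oligopyrimidine tract at the 5′ end through which mTOR signalling controls their translation together. A few members have a paralog with a restricted range of tissues, of which RPL3L, made in skeletal muscle and heart in place of RPL3, is the best known. In the kidney cortex, ribosomal protein mRNAs are made by every cell type.

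The libraries female 1, female 2 and male 6 stood apart, with high signal of skeletal muscle genes in biopsies labelled as kidney. In females, 16 of the 19 skeletal muscle genes searched were listed. Their mean log2(signal + 1) was 12.87 in female 1 and 13.40 in female 2 and lay between 0.87 and 1.40 in the other 6, where 7 of the 16 stayed under a signal of 1. For the 5 of these genes held for both sexes the mean was 13.51 in male 6, whereas the other 8 males lay between 0.73 and 2.23. Kidney markers moved the other way: the mean of 12 proximal tubule genes was 1.76 and 1.88 in female 1 and female 2 against 3.43 to 8.02, with the lowest value in female 3, and that of 7 thick limb genes was 1.76 and 1.46 against 5.75 to 7.47. The table's summed signal was 1105380 and 1424868 in female 1 and female 2 and between 388512 and 474617 in the other 6 females, and mitochondrial transcripts made up 9.57% and 12.2% of it against 19.5% to 36.1%. Because these 3 libraries were picked by a measured signal, each is given beside the range of the others and no test between them was made.

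The level of the family depended on the scale. Of the 76 members, 75 reached a signal of 1 in 4 or more of the 8 females, and RPL3L did not. The summed signal of the members was 17804 in female 1, 19495 in female 2, 10043 in female 3, 10024 in female 4, 6860 in female 5, 9229 in female 6, 8600 in female 7 and 7489 in female 8. Both muscle-rich libraries were above every other female on this deposited scale. As a share of the table's signal the order changed: the members made up 1.61% in female 1 and 1.37% in female 2, against 2.59%, 2.44%, 1.49%, 2.15%, 1.81% and 1.84% in female 3 to female 8. Female 2 was then the lowest of the 8, and female 1 lay just above female 5, the library with the highest mitochondrial share. Of the non-mitochondrial signal the members made up 1.78% in female 1 and 1.56% in female 2, below the 2.33% to 3.27% of the other 6.

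**Figure D1:**
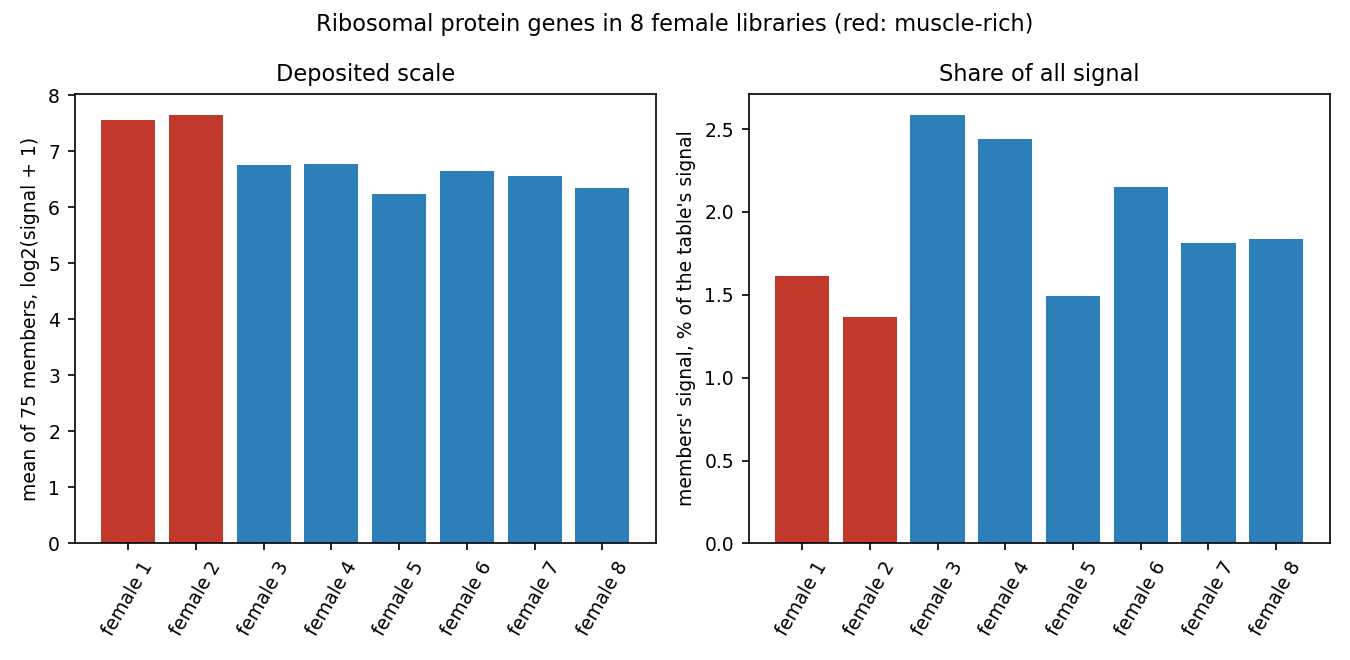
Level of the ribosomal protein genes in the 8 female libraries, as the mean log2(signal + 1) of 75 members (left) and as the percent of the table's summed signal (right), 1 bar per library, with female 1 and female 2 in red. The red bars are the highest on the left, at 7.57 and 7.65, and are 1.61% and 1.37% on the right, where the other 6 lie between 1.49% and 2.59%.

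Gene by gene, 72 of the 75 members were higher in both female 1 and female 2 than in any other female on the deposited scale and 1, RPL3, was lower, where 44.4% of all 12867 genes were higher and 18.7% lower. The filter drops genes with signal in female 1 and female 2 alone but keeps those seen only in the other 6. Of the 16 listed skeletal muscle genes, 6 passed it. The shares of all genes given here and below therefore lean towards genes lower in these libraries. The median difference from the other 6 was 0.999 log2 for the members and 0.45 log2 for all genes. With the median of all genes set equal in each library, 52 members were higher and 1 was lower, where 33.0% of all genes were higher and 29.4% lower. As a share of the table's signal, 0 members were higher and 35 were lower, where 10.8% of all genes were higher and 50.4% lower, and the median difference was -0.53 log2 for the members and -0.85 log2 for all genes. With equal upper quartiles, 29 members were higher and 4 lower, where 24.3% of all genes were higher and 40.5% lower. As a share of the non-mitochondrial signal, 0 members were higher and 61 lower, where 8.65% of all genes were higher and 61.3% lower, and the medians were -0.85 log2 for the members and -1.11 for all genes. The direction of the family's difference therefore turned with the scaling. Its median lay above that of all genes on each scale, but these are not separate observations. A scaling that shifts a whole library leaves the gap between members and all genes unchanged, apart from the added 1. In such bulk tissue, fewer cells of a type and less RNA per cell cannot be told apart.

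The small and the large subunit kept the same balance. The mean log2 signal of the small subunit genes exceeded that of the large subunit genes by 0.07 in female 1 and 0.13 in female 2, and by 0.02 to 0.13 in the other 6 females. Both muscle-rich values lay within the range of the others. The median difference of the muscle-rich libraries on the deposited scale was 1.01 log2 for the 27 small subunit genes and 0.98 log2 for the 48 large subunit genes.

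Proportions within the family were then examined by subtracting the mean log2(signal + 1) of the 75 members in each library, which removes any scaling of a whole library, apart from the added 1. Among the 6 females with low muscle signal the proportions were narrow. The SD of a member's proportion ranged from 0.04 to 0.46 log2 with a median of 0.11, and 52 of 75 members (69.3%) had an SD under 0.15 log2. Over all genes, centred on the same member mean, the median SD was 0.34 log2 and 7.03% were under 0.15; the members define the centre, so this comparison favours them. Centred instead on the median of all genes, the median SD was 0.19 log2 for the members and 0.30 for all genes. Among the 1903 genes with a mean signal at or above the members' 5th percentile it was 0.17 for members and 0.24 for all.

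The steadiest members were RPL11, RPS4X and RPL19. RPL11, a large subunit protein that also binds MDM2 as part of the p53 response to ribosome stress, had an SD of 0.04 log2, with signal of 156.1, 145.5, 103.4, 137.8, 132.0 and 114.5 in female 3 to female 8. RPS4X, the X-linked form of RPS4 in the small subunit, had 332.7, 345.1, 224.2, 305.5, 290.5 and 264.1, an SD of 0.05 log2 in proportion. RPL19 had an SD of 0.05 log2. Signal of each fell and rose with the family, lowest of the 6 in female 5 and highest in female 3 or female 4.

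The most variable members were RPL21, RPL32 and RPS15, with SDs of 0.46, 0.42 and 0.37 log2. RPL21 had 28.6, 34.7, 15.9, 12.6, 27.8 and 17.8 in female 3 to female 8, and RPL32 had 72.8, 83.0, 54.3, 88.4, 69.4 and 30.0. RPL32 was thus lowest in female 8, at less than any other female library, and RPL21 was lowest in female 6. Ribosomal protein genes have many near-identical copies in primate genomes: 142 entries with LOC numbers named a cytosolic ribosomal protein as product, 78 of them annotated as pseudogenes, and 57 members had at least 1 such copy. Reads of a gene and its copies can be split between them, so values of members with copies are uncertain.

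Adding the signal of the copies narrowed the spread of the most variable members. The 6 copies of RPL21 together had 83.1, 88.7, 76.9, 94.1, 80.6 and 79.1 in female 3 to female 8, more than RPL21 itself in each. With its copies added, the SD of RPL21 fell from 0.46 to 0.10 log2, that of RPL32 (4 copies) from 0.42 to 0.10, that of RPS15 (1 copy) from 0.37 to 0.15 and that of RPS25 (1 copy) from 0.30 to 0.09. The single copy of RPS25 was at 2.30 in female 4 and 1.69 in female 8 where RPS25 was at 109.2 and 76.7, and at 50.4 in female 3 where RPS25 was at 71.1. RPS24 went the other way, from 0.10 to 0.32 log2, the highest SD with copies. Over the 57 members with copies the SD was lower with the copies in 39, and the median went from 0.11 to 0.09 log2. RPS25 and RPS24 are named here after their values were seen.

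**Figure D2:**
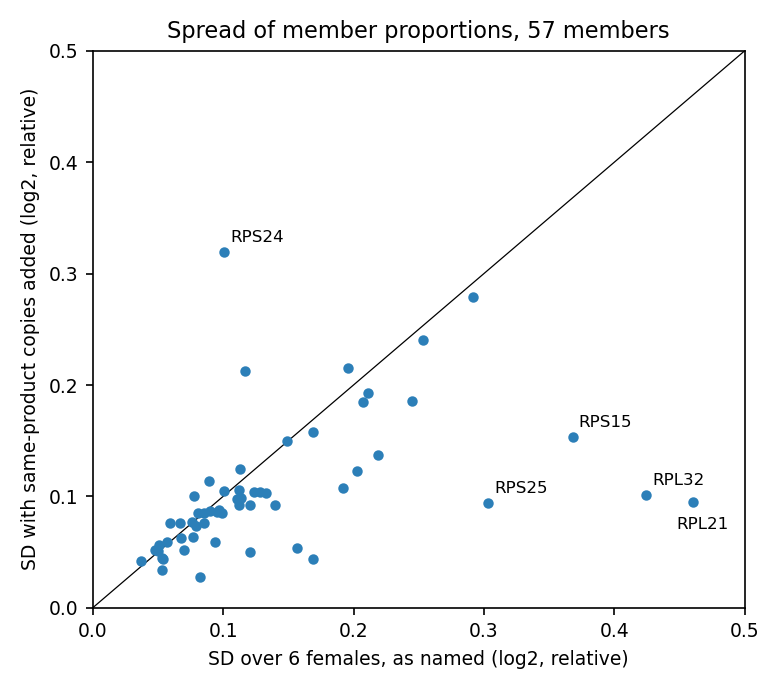
SD over 6 females of each member's log2 proportion as named (x axis) and with the signal of same-product copies under LOC numbers added (y axis), 1 point for each of 57 members, with the line of equality. RPL21, RPL32, RPS15 and RPS25 lie far below the line, at 0.10, 0.10, 0.15 and 0.09 on the y axis, and RPS24 lies above it at 0.32.

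Relative to the family, 23 members were higher and 22 lower in both muscle-rich females than in any of the other 6, where 19.2% of all genes were higher and 45.2% lower when centred in the same way. Most shifts were small: 53 of 75 members stayed within 0.5 log2 of the other females' median in both libraries. Of the 75, RPL3 alone moved beyond 1 log2 in both. How many of all genes stayed within 0.5 log2 or moved beyond 1 log2 was not computed. The members define the centre, which favours small and balanced shifts among them, so these counts have no fair background. RPL3L, left out of the 75 by the signal filter, was 7.06 and 7.82 log2 higher. The next paragraphs take the members by role.

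**Figure D3:**
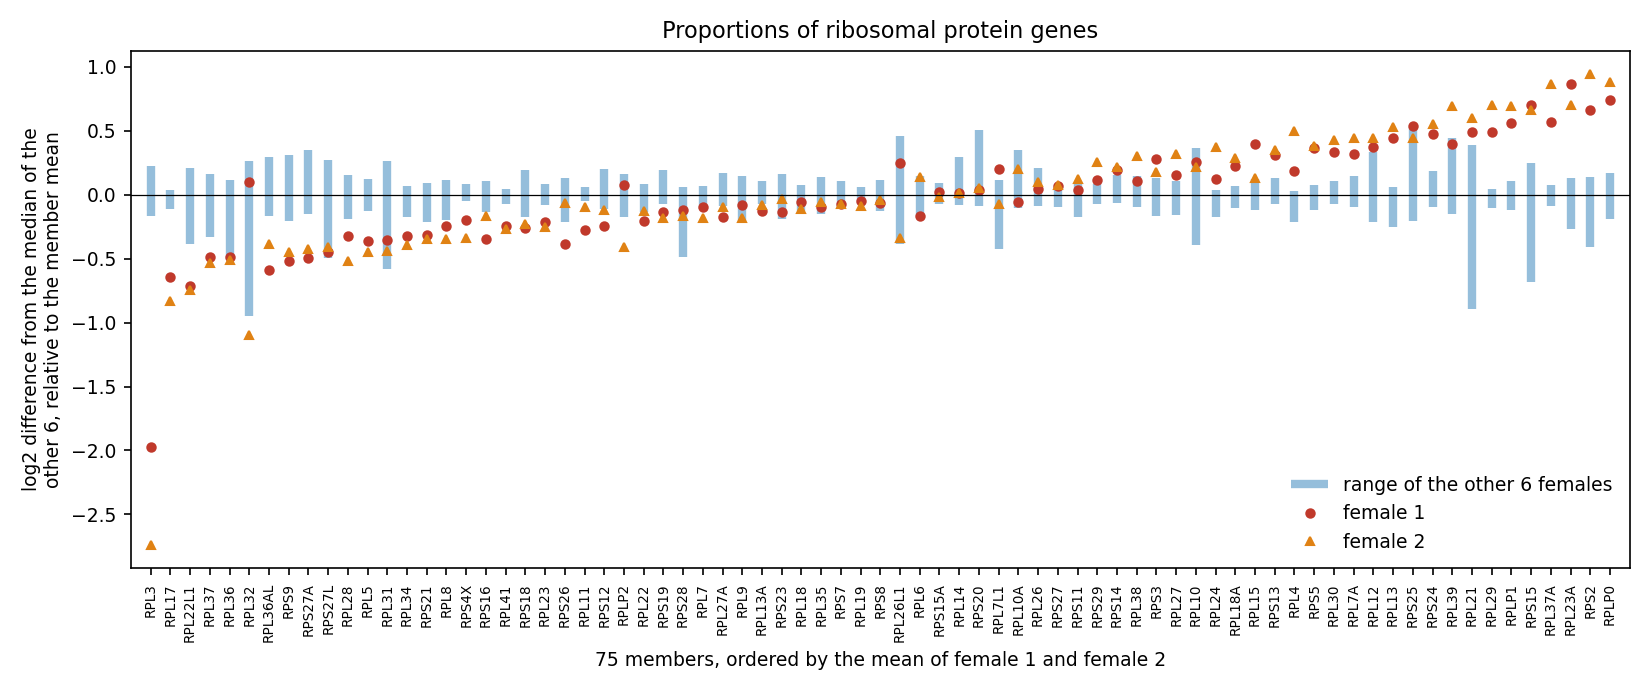
Proportion of each of 75 members in female 1 (circles) and female 2 (triangles), as log2 difference from the median of the other 6 females after subtracting the member mean, with the range of those 6 as blue bars. RPL3 lies alone at the lower end, at -1.98 and -2.74, and RPLP0, at 0.74 and 0.88, is at the upper end.

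RPL3, a large subunit protein that reaches towards the peptidyl transferase centre, was the member with the greatest fall in proportion. The gene is annotated on NC_018161.2 from 79890199 to 79897043 on the minus strand, with 1 transcript, which both tables held. Its signal was 145.5 in female 1 and 90.5 in female 2, against 372.7, 348.5, 205.1, 289.6, 259.0 and 288.6 in female 3 to female 8. Both muscle-rich females were below all other females, although most members were higher there on this scale. Male 6 had 210.4, the lowest of the males, whose other 8 values ran from 237.1 to 367.1. Male 6 thus lay under every other male but just above female 5. RPL3 averaged 1.10 log2 lower in the 3 libraries than in the other 14, whose SD was 0.24 log2.

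RPL3L, the muscle paralog of RPL3, showed the opposite. It is annotated on NC_018171.2 from 1827518 to 1837673 on the minus strand. Its signal was 317.3 in female 1 and 571.7 in female 2, and 0, 0.14, 0.19, 0.32, 0.22 and 0 in female 3 to female 8. The male value was not analysed here. The library with more RPL3L, female 2, also had less RPL3. It had the higher mean log2(signal + 1) of skeletal muscle genes too, 13.4 against 12.87 in female 1. With the 3 copies of RPL3 added, the proportion of RPL3 was still 1.94 and 2.76 log2 below the other females. How much of either value came from muscle cells in the biopsy was not tested.

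**Figure D4:**
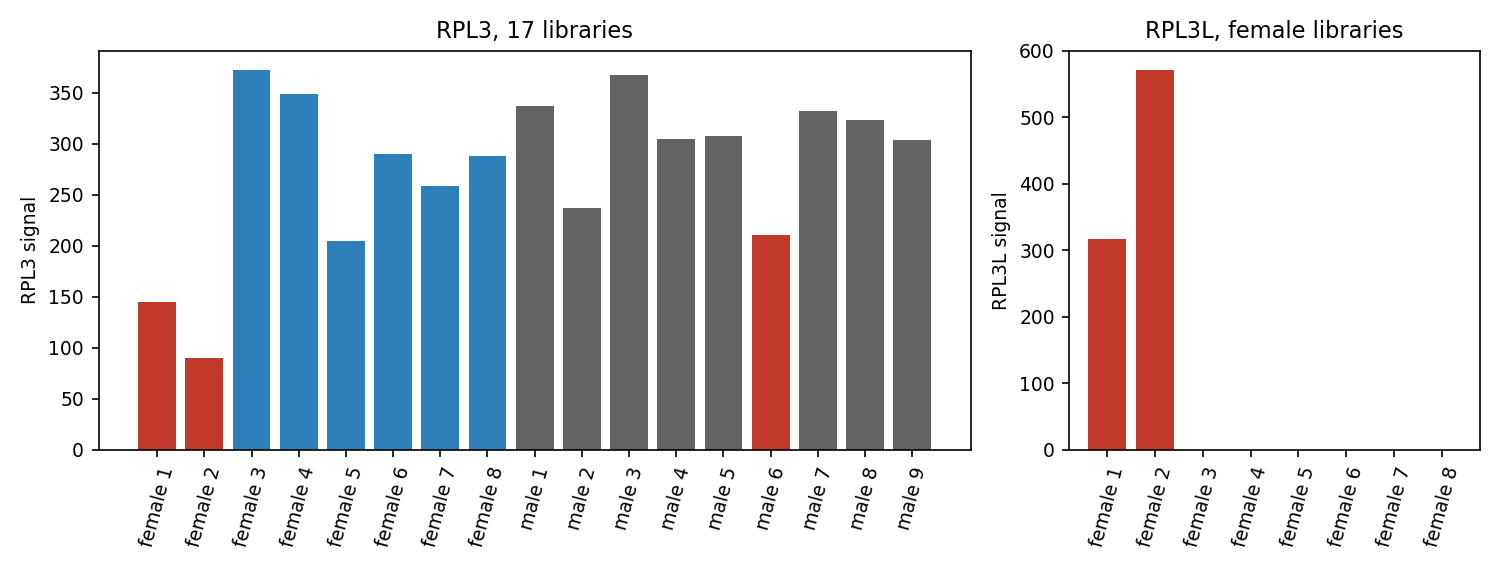
Signal of RPL3 in 17 libraries (left) and of RPL3L in the 8 females (right), 1 bar per library, with the 3 muscle-rich libraries in red, other females in blue and other males in grey. RPL3 is at 145.5, 90.5 and 210.4 in the red bars, and RPL3L is at 317.3 and 571.7 in female 1 and female 2 and at most 0.32 in the other females.

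The other paralogs did not show such an exchange. RPL22L1, the paralog of RPL22, stayed low, at 3.31 and 3.47 in female 1 and female 2 against 1.72 to 3.37, while RPL22 was at 170.4 and 190.6 against 74.99 to 108.4. Relative to the family RPL22L1 was 0.72 and 0.75 log2 lower, the second-largest fall, and RPL22 was 0.20 and 0.13 log2 lower. The added 1 weighs on a signal this low. RPL7L1, a paralog of RPL7 with a role in ribosome assembly, was at 102.8 and 89.9 against 34.9 to 55.0, and RPL7 was at 268.8 in both libraries against 114.4 to 172.9. Both were higher on the deposited scale, and relative to the family RPL7L1 differed by 0.20 and -0.08 log2 and RPL7 by -0.10 and -0.18. RPL26L1 was at 7.57 and 5.05 against 1.53 to 3.97, and RPL26 was at 237.3 and 262.3 against 86.5 to 141.3. RPS27L, a p53 target, was at 27.01 and 29.5 against 14.6 to 23.5, and RPS27 was at 266.8 and 284.7 against 101.4 to 154.6. RPL36AL was at 44.7 and 55.1 against 31.98 to 36.4, and was 0.59 and 0.38 log2 lower relative to the family. Its partner RPL36A was not analysed here.

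The stalk, which recruits the elongation factors to the large subunit, was uneven. RPLP0, its base, was at 635.1 and 743.8 in the muscle-rich females and between 152.4 and 216.1 in the others, and was the member with the greatest rise in proportion, 0.74 and 0.88 log2. RPLP1 was at 421.7 and 491.5 against 113.6 to 176.0, a rise in proportion of 0.56 and 0.70 log2. RPLP2, its dimer partner, was at 238.8 and 180.7 against 100.04 to 137.0, and its proportion differed by 0.08 and -0.41 log2. RPLP0 and RPLP1 thus lay outside the other females' proportions in both libraries and RPLP2 in female 2 alone, on the low side. RPLP1 and RPLP2 are named for their part in the stalk, after their values were seen.

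Among the other large subunit members, RPL23A, a protein at the exit of the peptide tunnel, was at 252.1 and 238.0 against 55.7 to 85.7, and rose in proportion by 0.87 and 0.70 log2. RPL37A was at 254.3 and 332.8 against 67.6 to 102.9, a rise of 0.57 and 0.87 log2. On the low side, RPL17 was at 223.0 and 207.1 against 134.6 to 197.8. That was higher than any other female in signal, yet 0.64 and 0.83 log2 lower relative to the family, where the other 6 spanned -0.11 to 0.04. RPL37 was at 145.0 and 148.6 against 69.0 to 120.7, 0.49 and 0.53 log2 lower in proportion. RPL36 was at 120.2 and 125.4 against 67.7 to 97.3, 0.49 and 0.51 log2 lower in proportion, and there the lowest of the others reached -0.51.

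Among small subunit members, RPS2, a protein at the mRNA entry channel, was at 359.9 and 463.1 against 90.6 to 126.9 and rose in proportion by 0.66 and 0.94 log2. RPS15 was at 243.4 and 251.0 against 39.04 to 95.7 and rose by 0.70 and 0.67 log2. With its copy added, the difference of RPS15 was 0.15 and 0.09 log2, so its rise did not hold when the copy was counted with it.

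Within genes of several transcripts, RPS24 changed most in which transcript carried its signal. RPS24, a small subunit protein whose pre-mRNA is spliced differently between tissues near its 3′ end, is annotated on NC_018160.2 from 51968129 to 51975331 on the minus strand, with 5 transcripts. Transcript variant X9 was at 231.2 in female 1 and 281.5 in female 2, which was 80.3% and 87.5% of the gene's signal. In the other 6 females X9 made up at most 9.89% of it. Variant X10 was at 55.5 and 35.5 in the muscle-rich females, 19.3% and 11.03% of the gene's signal, and at 105.5, 98.8, 73.2, 124.9, 90.6 and 91.8 in female 3 to female 8, 85.7% to 99.9% of it. Both transcripts separated the muscle-rich females from the others, in opposite directions.

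X10 was also held for the males. Male 6 had 54.2, and the other 8 males ran from 71.2 to 119.6. In all 3 muscle-rich libraries X10 was therefore below each of the other 14, by 1.04 log2 on average where the SD of the 14 was 0.24. X9 was not analysed here in males. The RPS24 gene as a whole was at 288.0 and 321.6 against 77.0 to 125.0 in females, 0.48 and 0.55 log2 above the others in proportion. With its copies added, the difference of RPS24 was -0.12 and -0.03 log2, so this rise did not hold when the copies were counted with it. The assignment of signal to such similar transcripts was the authors', and 3 copies of RPS24 under LOC numbers carried 101.9 and 131.6 in female 1 and female 2 and 57.2 to 124.5 in the others.

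**Figure D5:**
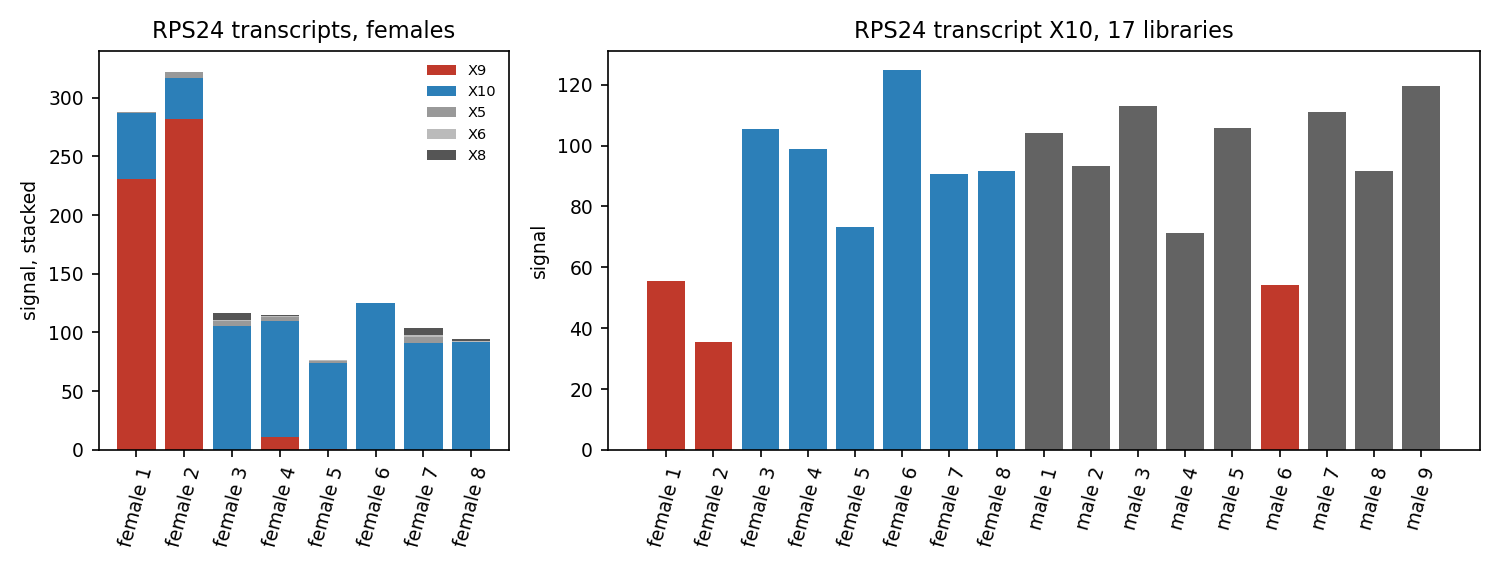
RPS24 signal by transcript variant in the 8 females, stacked (left), and of variant X10 in 17 libraries (right), 1 bar per library; on the right the 3 muscle-rich libraries are red, other females blue and other males grey. X9 makes up 80.3% and 87.5% of the gene in female 1 and female 2, and X10 is at 55.5, 35.5 and 54.2 in the 3 red bars and at 71.2 or more in the others.

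RPL22L1 and RPL21 followed RPS24. For RPL22L1 variant X1 made up 99.1% and 99.4% in the muscle-rich females and 0% to 51.2% in the others, at a total signal of 3.47 or less, which is little to divide. For RPL21 variant X3 made up 18.4% and 32.7% in the muscle-rich females and 51.4% to 79.5% in the others. The shares of these variants thus did not overlap between these libraries. Those of RPL21 variant X1 did, at 12.51% and 12.85% against 0% to 18.73%, and the RPL21 shares come beside its 6 copies. How often transcript shares separate these libraries among all genes was not computed, so the shifts of RPS24, RPL22L1 and RPL21 have no background.

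Other genes of protein synthesis gave the setting for these shifts. Of 19 measured genes of translation elongation, initiation and related steps, 16 were higher and 1 was lower in both muscle-rich females on the deposited scale, against the same 44.4% and 18.7% of all genes. TPT1 was at 3885 and 4347 against 366.8 to 487.7. EEF2, the translocation factor, was at 2634 and 2792 against 342.3 to 580.5. Of 34 measured ribosome assembly genes 27 were higher and 0 lower, and of 14 measured mTOR and MYC pathway genes 13 were higher and 0 lower. As shares of the table's signal these counts became 6 higher and 4 lower, 2 and 8, and 4 and 1, where 10.8% of all genes were higher and 50.4% lower.

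The pair of elongation factor 1 alpha genes ran parallel to RPL3 and RPL3L. EEF1A1, the general form, was the 1 lower gene of its list, at 815.4 and 706.1 in female 1 and female 2 against 1431 to 2386 in the other females. EEF1A2, the form of muscle and neurons, was at 3026 and 3055 against at most 0.75. In male 6 EEF1A1 was at 1249, against 1808 to 3130 in the other 8 males, and EEF1A2 was at 2185, against at most 0.92. All 3 muscle-rich libraries thus lay outside the other 14 for both genes.

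Covariation over libraries is given as a description, since the points share depth, scaling and tissue makeup. Over the 8 females the median Pearson r of the 2775 pairs among 75 members was 0.94, where that of all 12867 genes was 0.15. Over the 6 females with low muscle signal it was 0.80 against 0.22, and 82.2% of member pairs had r over 0.5 against 31.5% of all pairs. With each library set to the same median it was 0.63 over the 6 females, against 0.00 for all genes, and 61.8% of pairs were over 0.5 against 19.9%. The members were therefore more correlated with one another than all genes were, also after this scaling. No comparison with genes of like signal was made for r. The members least in step after this scaling were RPS2, RPL21 and RPL7L1, with a median r to the other members of -0.30, -0.18 and -0.06. RPL30, at 0.86, was the most in step.

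The authors' deposited table places each transcript in a co-expression module named by colour. In females, 96 of the 112 member transcripts (85.7%) were in the blue module, which held 41.7% of all transcripts. RPL3 and variant X10 of RPS24 were in the grey60 module, and variant X9 of RPS24 was in the blue. These modules were built on the same libraries, muscle-rich ones included, so they are not independent of the values above.

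The comparison of the sexes covered 7 members with enough signal in the shared transcripts, of which RPL3 and RPL7L1 were whole genes. Of the shared member transcripts, only those of RPL7L1 and RPL15 (variant X1) were in the females' blue module, which held 96 of the 112 member transcripts. The 7 therefore need not stand for the family. None of the 7 passed limma at an adjusted p under 0.05, where 13.6% of 9414 genes did, 35 higher and 1241 lower in females. At an unadjusted p under 0.05, 1 of the 7 passed, the shared transcript of RPL6, where 29.4% of all genes did. The shared transcript of RPL9, its minor variant X1, did not reach the minimum signal in enough libraries, whereas RPL9 as a whole was at 110.7 or more in the females. The signal of RPL3 was 249.9 ± 97.3 in the females (mean and SD, n = 8). In the males it was 302.7 ± 49.4 (mean and SD, n = 9). The log2 difference, females minus males, was -0.38 with a standard error of 0.25 (limma, adjusted p = 0.340). RPL7L1 was at 56.3 ± 25.9 in the females and 60.4 ± 8.97 in the males over the same animals. Its log2 difference was -0.20 with a standard error of 0.22 (limma, adjusted p = 0.591). Against the 5 males of one name series the differences were -0.42 for RPL3 and -0.04 for RPL7L1, and against the 4 of the other they were -0.33 and -0.39. Both differences were within the spread between animals, and the median of all genes was itself -0.29 log2.

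Without the 3 muscle-rich libraries 2 of the 7 members were lower in females, where 39.3% of 9194 genes passed in either direction. RPL7L1 was then at 43.0 ± 8.26 over 6 females and 59.8 ± 9.43 over 8 males (mean and SD). Its log2 difference was -0.47 with a standard error of 0.14 (limma, adjusted p = 0.0140). The other was a single minor transcript of RPL6, with a mean signal of 0.78 in females and 1.71 in males. With the median of all genes also set equal, neither passed, and 1 member, RPL17 in its shared transcripts, was higher in females by 0.67 log2 (limma, adjusted p = 0.0123), where 30.8% of genes passed. For RPL3 the difference without the 3 libraries was -0.11 log2 (limma, adjusted p = 0.583). The shares of members called were near or below those of all genes, and the calls changed with the scaling.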

How the data were processed

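RNA of 17 kidney cortex biopsies was sequenced from stranded mRNA libraries, per the labels' protocols. For each sex the authors deposited a table of scaled signal for every transcript, offset by 1, with module colours. Partek is named in the submitters' processing notes; the sources used here do not name the aligner, the build or the scaling, nor whether signal is per length, so levels were not compared between genes. Coordinates are those of the tables. Read depth is unknown and the number of libraries limits the precision. The male table was held in part (17119 complete rows of 26644 in females). Rows that name no gene (7 per sex, 0.62% to 2.13% of signal) were left out.

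The offset was subtracted and transcripts were summed per gene. In 2 member transcripts the symbol stood second in the name field. Genes needed a signal of 1 in 8 of 17 libraries, or in 4 of 8 females. limma 3.58.1 (R 4.3.3) was run on log2(signal + 1), a scale that understates changes of low genes, with a trend in the variance and p-values adjusted over all genes (Benjamini-Hochberg), and was tested on simulated data. Summaries used Python 3.11.15. A test of the sexes relative to the member mean was planned but not run, since 2 members were whole in both tables. "Higher" or "lower" in the muscle-rich females means both lay outside the range of the other 6, as a description.

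Named were paralogs and partners, called members, the 5 greatest shifts each way in proportion by the smaller of 2 females, the 3 most and 3 least variable, and the 3 greatest transcript shifts. RPL3L, which did not pass the filter, was kept out of the ranking. Male 6 could not enter these ranks. The members and lists were chosen with earlier results of these data known. Alternatives covered scaling, pseudocount, filters, age, male name series, copies and left-out libraries. Some genes related to the ribosome are not reported here.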

Additional observations from a re-analysis of the deposited data

Results flagged for a closer look

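One of 38 sets of values examined held a single library far from the rest of its group, where chance alone gives about 1 in 20. The rule looks for 1 library apart, so libraries that stand apart together hide each other. RPL3L in females, at 317.3 and 571.7 in female 1 and female 2, was therefore not flagged. Nor was RPL38 variant X4 in males, at 57.9 in male 3 and 79.7 in male 7. The count thus does not show how often libraries stood apart. The flagged set was a minor transcript of RPL15 in males, variant X1, whose log2(signal + 1) was 2.59 in male 6. Its signal there was 5.02, against 14.1 to 29.6 in the other 8 males. In females the same transcript was at 24.7 and 19.8 in the muscle-rich female 1 and female 2, within or above the 14.1 to 21.7 of the other 6, so the low value was seen in 1 of the 3 muscle-rich libraries. The other RPL15 transcripts were not analysed here in males.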

How the results depend on the processing

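The count of genes that differed between the sexes, 1276, became 454 with median scaling, 342 with upper quartile scaling, 770 with a minimum signal of 10, 642 with the 5 males of one name series (A) only, 1 with the 4 of the other (B) only, 1 with an age term, 3612 without the 3 muscle-rich libraries and 2832 with median scaling as well. Leaving out 1 library gave 638 to 2333; it moved the count by over 1.5 times for male 9 (638), male 7 (659), male 5 (807), female 8 (843) and male 6 (2333). Members called, 0 of 7, became 2 without the 3 libraries, 1 with median scaling as well, and 0 to 1 when 1 library was left out (RPL6 part, without female 7 or male 6). None of the member differences that changed sign was called. RPL3 became 0.42 log2 with an age term and 0.30 without the 3 libraries at median scaling. RPL7L1 became 0.16 with median and 0.13 with upper quartile scaling. The RPS24 part became 0.053, 0.030, 0.42 (age) and 0.29 (without the 3, median scaling), the RPL15 part 0.25, 0.23, 0.943 and 0.009, and 0.051 with series B, the RPL17 part -0.087 with series B and the RPL6 part 0.47 with age. The cause was not tested. Members higher in both muscle-rich females, 72, became 29 with upper quartile scaling (24.3% of all genes) and 0 as a share of all (10.8%) or of non-mitochondrial signal (8.65%). Counts of proportions stayed within 1.5 times under the filters, pseudocount, centring, copies and left-out libraries tried, and RPL3 stayed between -1.99 and -2.76 log2. Without female 1 it was -2.76 and without female 2 it was -1.99. The median r of member pairs, 0.94, was 0.80 without the muscle-rich females, 0.82 with median scaling and 0.63 with both. The alternatives of the test relative to the member mean were not run, and covariation was not computed in males, where 2 members were whole. No paired analysis was possible because the labels carry no replicate numbers shared by the sexes. The settings on copies, shares, centring, left-out females in proportions and the filters of the female table were chosen after seeing the data.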

Other observations

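The mitochondrial ribosome, which makes proteins encoded by mitochondrial DNA from its own set of nuclear-encoded proteins, can be set beside the cytosolic one. Of 76 measured mitochondrial ribosomal protein genes, 62 were higher and 1 was lower in both muscle-rich females than in any other female on the deposited scale, with a median difference of 1.17 log2, where 44.4% of all genes were higher and 18.7% lower. As a share of the table's signal 8 were higher and 20 lower, with a median of -0.30 log2, where 10.8% of all genes were higher and 50.4% lower, so the share of higher ones was near that of all genes. Relative to the mean of the cytosolic members, 27 were higher and 9 lower, with a median of 0.12 log2, where 19.2% of all genes were higher and 45.2% lower.

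Of the ribosome assembly genes, SBDS, which releases the factor EIF6 from new large subunits, stood out at 190.7 and 174.8 in female 1 and female 2 against 14.6 to 25.9 in the other females, and 2.10 and 1.89 log2 relative to the ribosomal protein mean. EIF6 itself was at 61.8 and 61.5 against 44.4 to 67.1, and 0.83 and 0.92 log2 lower on that relative scale. SBDS and EIF6 were named after their values were seen.

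The transcript of RPL38 shared by the tables, variant X4, was at 57.9 in male 3 and 79.7 in male 7 and at most 9.19 in the other 15 libraries. In the females X4 made up at most 9.09% of the gene's signal. The other RPL38 variants were not analysed here in males, so the level of the gene there is not known.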
